A study of Homo sapiens with 12 samples.

Results

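The 10 genes described here are the immunoglobulin constant region genes IGHM, IGHD, IGHG1, IGHG3, IGHA1, IGKC, IGLC1, IGLC2 and IGLC3, together with JCHAIN. They were chosen by symbol, as the constant genes of the heavy and light chains in 2 B cell lymphoma lines plus the joining chain, and each matched 1 Ensembl gene identifier among the 58884 genes of the count table. RNA was sequenced from U2932 and TMD8, cell lines established from diffuse large B-cell lymphoma (DLBCL) and labelled as wild type. Each line was treated for 4 h with 20 µg/mL of rituximab (R), of ofatumumab (OF) or of an isotype control, a human IgG1. Each of the 6 conditions had 2 libraries. R and OF are therapeutic antibodies against CD20, the surface protein encoded by MS4A1, and the isotype antibody was the control for both. The 2 replicates of a line were cultures split from it and kept apart for a week, so they measure the spread between cultures of 1 line and not between patients. All 12 libraries received an antibody protein, and none was left untreated.

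An immunoglobulin consists of paired heavy and light chains, each with a variable region that binds antigen and a constant region that sets its class. A B cell first makes IgM and IgD from IGHM and IGHD, and class switching can later join the same variable region to an IgG, IgA or IgE constant gene by deleting the DNA between them. A light chain is either kappa, from the single gene IGKC, or lambda, from one of several IGLC copies, and a mature B cell normally displays only one of these. The J chain, encoded by JCHAIN, links secreted IgM into pentamers and IgA into dimers. On a DLBCL cell the membrane form of IgM is the antigen-binding part of the B-cell receptor, and the counts used here, made per gene, do not separate the membrane form from the secreted one.

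In the human genome build GRCh38 (GENCODE 29), the 5 heavy chain members lie on the minus strand of chromosome 14. IGHM is at chr14:105851705-105856218, IGHD at chr14:105836765-105845678, IGHG3 at chr14:105764503-105771405, IGHG1 at chr14:105736343-105743071 and IGHA1 at chr14:105703995-105708665. IGKC has 1 exon at chr2:88857161-88857683 on the minus strand. The 3 lambda members have 1 constant exon each on the plus strand of chromosome 22, IGLC1 at chr22:22895375-22895834, IGLC2 at chr22:22900976-22901437 and IGLC3 at chr22:22906342-22906803. JCHAIN is at chr4:70655541-70681817 on the minus strand, and its exons overlap those of ENAM on the other strand. The exon of IGLC1 also lies over an exon of IGLL5 on the same strand, so reads from it cannot be assigned to 1 of these genes by position.

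The first 260 coding bases of the lambda exons are shown because they are near copies of one another, which bears on every lambda count below. They are given 5′ to 3′ on the plus strand, from GENCODE 29 transcripts, at chr22:22900976-22901235 (IGLC2), chr22:22906342-22906601 (IGLC3) and chr22:22895375-22895634 (IGLC1). Capitals mark the bases that differ from IGLC2.
IGLC2: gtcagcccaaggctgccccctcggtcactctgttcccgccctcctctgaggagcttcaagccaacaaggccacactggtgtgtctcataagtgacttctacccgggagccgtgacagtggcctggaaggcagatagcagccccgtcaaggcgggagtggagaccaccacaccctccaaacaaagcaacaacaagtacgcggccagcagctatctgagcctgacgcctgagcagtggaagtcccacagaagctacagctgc
IGLC3: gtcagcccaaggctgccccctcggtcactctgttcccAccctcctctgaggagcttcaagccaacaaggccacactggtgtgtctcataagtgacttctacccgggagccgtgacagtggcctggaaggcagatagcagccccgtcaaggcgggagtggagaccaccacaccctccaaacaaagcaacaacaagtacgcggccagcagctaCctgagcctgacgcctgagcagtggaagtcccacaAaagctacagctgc
IGLC1: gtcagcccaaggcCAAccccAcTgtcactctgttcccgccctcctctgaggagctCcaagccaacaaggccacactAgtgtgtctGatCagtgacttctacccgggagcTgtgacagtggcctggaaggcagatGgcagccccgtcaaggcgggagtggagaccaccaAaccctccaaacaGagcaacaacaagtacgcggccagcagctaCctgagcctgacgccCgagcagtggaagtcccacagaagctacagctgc
Over the whole coding part of 317 bases, IGLC3 differed from IGLC2 at 3 positions (99.1% identical), all of them shown, and had a shared run of 173 bases. IGLC1 differed from IGLC2 at 15 positions (95.3% identical), also all shown, and IGLC7, a lambda constant gene outside the 10, at 13. A read that covers none of these positions fits more than 1 copy, so the split of lambda counts among the copies is uncertain.

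The IgG genes are alike in the same way, and the hinge, the short stretch between the antigen-binding arms and the Fc, is where they differ most. The hinge exons are given 5′ to 3′ on the minus strand, at chr14:105742341-105742385 for IGHG1, chr14:105770669-105770719 for the first of the 4 of IGHG3, chr14:105644068-105644103 for IGHG2 and chr14:105625344-105625379 for IGHG4. IGHG2 and IGHG4 are not among the 10 genes and are shown because their counts enter the subclass shares below. Capitals mark the TGT and TGC codons, which encode cysteines. Hinge cysteines bridge the heavy chains, except that the first one of IGHG1 pairs with the light chain.
IGHG1: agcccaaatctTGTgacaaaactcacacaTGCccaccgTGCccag
IGHG3, first hinge exon: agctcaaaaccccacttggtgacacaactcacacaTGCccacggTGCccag
IGHG3, second hinge exon: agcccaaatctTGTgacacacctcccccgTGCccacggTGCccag
IGHG2: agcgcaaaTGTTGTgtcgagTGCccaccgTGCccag
IGHG4: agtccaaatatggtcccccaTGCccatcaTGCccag
The IGHG1 hinge holds 3 such codons in 45 bases, IGHG2 4 in 36 bases and IGHG4 2 in 36 bases, while the first IGHG3 exon holds 2 in 51 bases and each of the others 3 in 45 bases. Outside the hinge, the CH3 exons of IGHG1 and IGHG2 were 98.1% identical with a shared run of 147 bases, and the CH1 exons of IGHG1 and IGHG4 shared a run of 164 bases. Counts of single IgG genes are uncertain to the extent that reads fell in such runs.

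The libraries held 15440226 to 27110612 counts. The 10 genes took 0.504 to 0.759% of the counts in U2932 and 0.171 to 0.205% in TMD8. Levels are given as CPM, counts relative to the library total after TMM scaling over the 12 libraries. In both lines, all 8 B cell markers were above 1 CPM, while CD3D, CD3E, CD3G and CD2 of the T cell list, the 5 monocyte genes and the 3 erythroid genes were near 0 or at 0, with summed levels of at most 1.01 CPM for monocyte genes. Of the T cell list only CD247 was above 1 CPM, at 7.57 to 11.3 CPM in U2932. In TMD8, 2 libraries stood apart, OF replicate 2 and isotype replicate 2, in which ribosomal protein genes took 7.78% and 7.05% of the counts, against 10.9 to 11.76% in the other 4 TMD8 libraries, and mitochondrial genes 3.73% and 3.99%, against 5.70 to 6.23%. In U2932 the ribosomal protein share was 4.90 and 5.24% under isotype and 6.69 to 7.27% under R or OF.

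U2932 expressed IgM with kappa and the J chain. IGHM, the µ heavy chain, was measured at 4190 and 4170 CPM under R, 4750 and 4610 CPM under OF and 3280 and 2620 CPM under isotype. IGKC was at 1970 and 1940 CPM under R, 1790 and 1770 CPM under OF and 1470 and 1390 CPM under isotype. JCHAIN was at 702 and 827 CPM under R, 739 and 752 CPM under OF and 627 and 635 CPM under isotype. For all 3 genes, both isotype libraries were below all 4 libraries that received R or OF. The share of all genes separated in this way was not counted, so the separation is not shown to be particular to them. Per kilobase of exon, the mean level over the 6 libraries was 3290 CPM for IGKC, 2100 for IGHM and 425 for JCHAIN, and the next member, IGLC2, stood at 24.1. IGHM made up 99.4% ± 0.0525 (SD, n = 2) of all counts on heavy chain constant genes under R, 99.4% ± 0.00445 under OF and 99.2% ± 0.00573 under isotype. IGKC made up 99.4% ± 0.0407 of the light chain constant counts under R, 99.5% ± 0.0585 under OF and 99.0% ± 0.0362 under isotype. These light chain counts hold none on the IGLC1 exon, which is also IGLL5 exon, so the lambda part may be undercounted.

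The other members were minor in U2932. IGLC2 was at 11.2 and 10.3 CPM under R, 8.22 and 9.72 CPM under OF and 14.2 and 13.2 CPM under isotype. It was thus highest under isotype, where IGHM, IGKC and JCHAIN were lowest. IGHG3 lay between 12.9 and 15.7 CPM and IGHA1 between 5.87 and 9.84 CPM in all 6 libraries, and in IGHA1 the isotype libraries, at 9.84 and 6.26 CPM, spanned most of that range. IGHD, which is made from the same primary transcript as IGHM by alternative splicing, was at only 0.953 to 1.83 CPM (17 to 41 counts). IGHG1 held 4 to 13 counts and IGLC3 1 to 22 counts in a library. IGLC1 had no count in any of the 12 libraries, where 3 counts would correspond to 0.111 to 0.194 CPM. Its exon is also IGLL5 exon, and IGLL5 held 1553 to 2001 counts in U2932 and 349 to 666 in TMD8, so a count of 0 for IGLC1 does not show that the segment was not transcribed.

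TMD8 also expressed mainly IgM and kappa, at lower levels and with more counts on IgG and lambda genes. IGHM was at 1050 and 1170 CPM under R, 1290 and 1350 CPM under OF and 898 and 1100 CPM under isotype, and the R and isotype libraries overlapped. IGKC was at 572 and 587 CPM under R, 629 and 401 CPM under OF and 692 and 416 CPM under isotype. Its low values were those of OF replicate 2 and isotype replicate 2, and so were the low values of IGLC2, which was at 84.5 and 90.8 CPM under R, 98.6 and 54.7 CPM under OF and 117 and 55.4 CPM under isotype. IGLC3 was also lowest in the same libraries, with 8.71 and 9.81 CPM under R, 10.3 and 4.64 CPM under OF and 10.2 and 7.27 CPM under isotype. Light chain levels thus moved with the libraries that stood apart, and the part of those libraries' low ribosomal and mitochondrial shares in this was not tested. JCHAIN was at 5.91 and 6.46 CPM under R, 5.76 and 5.86 CPM under OF and 7.93 and 5.96 CPM under isotype. IGHD was at 0.628 to 1.48 CPM (11 to 27 counts).

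**Figure D1:**
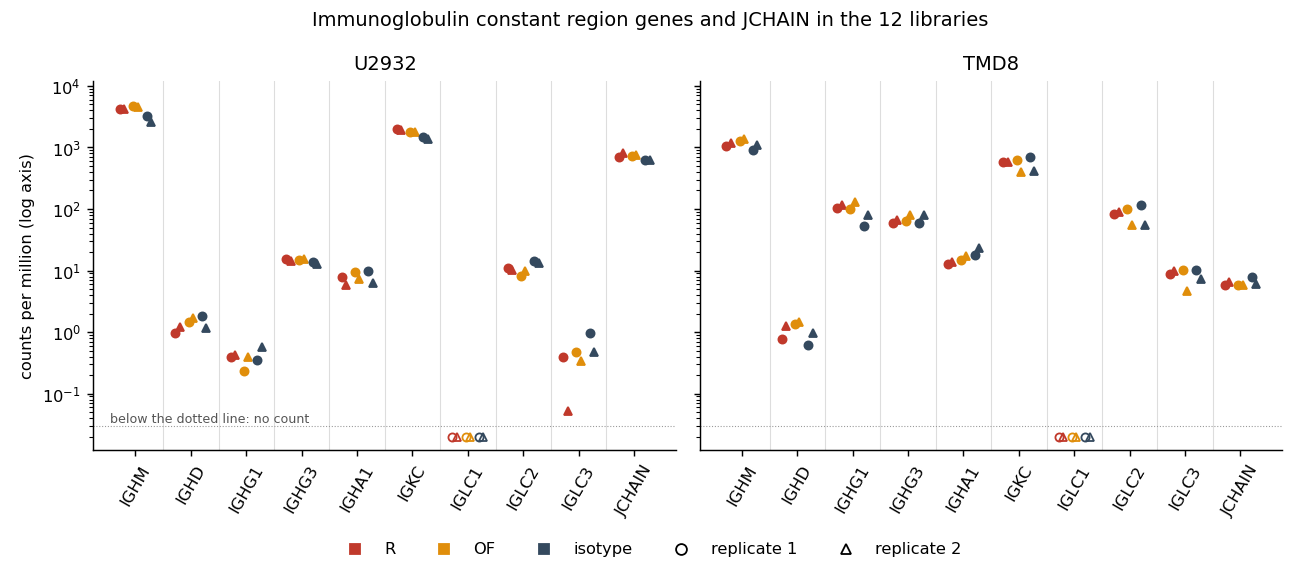
Level of each of the 10 genes in every library, in CPM on a log axis, for U2932 (left) and TMD8 (right), with colours for the antibody and symbols for the replicate. In U2932, IGHM, IGKC and JCHAIN stand at 627 CPM or more in every library, whereas in TMD8 JCHAIN lies between 5.76 and 7.93 CPM and IGHG1 between 53.8 and 130 CPM, and IGLC1 has no count in either line.

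Per kilobase of exon, the order in TMD8 was IGKC at a mean of 1050 CPM over the 6 libraries, IGHM at 611, IGLC2 at 181, IGHG1 at 35.2, IGHG3 at 23.5, IGLC3 at 18.4, IGHA1 at 11.7, JCHAIN at 3.76 and IGHD at 0.630. IGHG1 ranged from 53.8 to 130 CPM and IGHG3 from 58.5 to 81.2 CPM before scaling to length, so these neighbours overlapped between libraries. The IgG genes outside the 10 were of similar size, with 61.5 CPM per kilobase for IGHG2 and 22.9 for IGHG4, and the lambda gene IGLC7 stood at 26.7. In U2932 the same 3 genes were at or near 0, with at most 4 counts of IGHG2 in a library and none of IGHG4 or IGLC7.

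IGHM held a smaller share of heavy chain counts in TMD8, 74.7% ± 0.147 (SD, n = 2) under R, 75.6% ± 2.20 under OF and 69.7% ± 3.15 under isotype. The 4 IgG genes together held 24.3% ± 0.141, 23.4% ± 2.16 and 28.8% ± 3.19 in the same order, and IGHA1 0.887% ± 0.0233, 0.918% ± 0.0367 and 1.44% ± 0.0294. IGKC held 84.1% ± 0.252 of the light chain counts under R, 84.8% ± 1.57 under OF and 84.1% ± 1.90 under isotype. The lambda genes made up the other 15.9%, 15.2% and 15.9%, of which IGLC2 was the most, at 11.4 to 14.0% of light chain counts in the 6 libraries. Among the genes with counts, the kappa to lambda split of TMD8 differed between antibodies by less than the spread between replicates. The IGKC share was highest in the libraries with low light chain levels. It was 85.9% in OF replicate 2 and 85.5% in isotype replicate 2, against 83.7% and 82.8% in their partners. The split holds no counts on the IGLC1 exon, which is also IGLL5 exon, so lambda may be undercounted. IGLL5 averaged 39.6 CPM under R, 34.2 CPM under OF and 20.2 CPM under isotype in TMD8.

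Within the IgG genes of TMD8, the shares of IGHG1, IGHG2 and IGHG4 differed between isotype and the anti-CD20 antibodies by more than the spread between replicates, and that of IGHG3 did not. IGHG1 held 30.5% and 30.2% of the counts on the 4 IgG genes under R, 27.4% and 28.6% under OF, and 16.2% and 16.0% under isotype. IGHG2 held 34.2% and 35.1% under R, 36.6% and 37.7% under OF, and 53.0% and 55.3% under isotype. The group means of IGHG1 were 14.2 percentage points higher under R than under isotype and 11.9 points higher under OF, and those of IGHG2 were lower, at 34.7% ± 0.635 and 37.1% ± 0.811 against 54.1% ± 1.63. IGHG4 averaged 17.8% under R, 17.3% under OF and 12.8% under isotype, and IGHG3 17.2%, 17.6% and 16.9%. The replicates that stood apart lay beside their partners in these shares, which compare genes within 1 library. With 2 libraries against 2, an exact two-sided permutation test of a share cannot go below p = 0.333, so no p is given for shares, and reads shared by the near copies limit how far they can be ascribed to single genes.

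**Figure D2:**
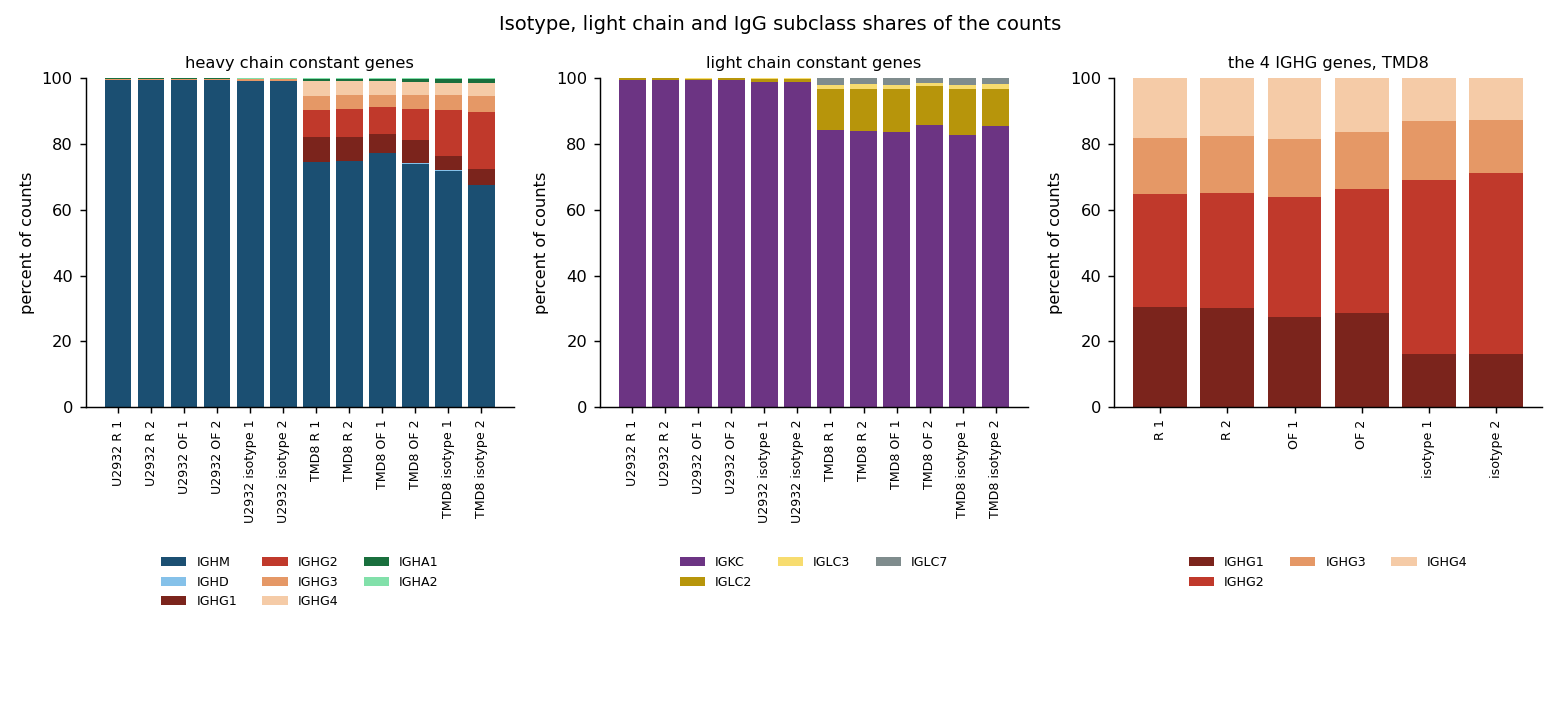
Stacked shares, in percent of counts in each library, of the heavy chain constant genes (left), of the light chain constant genes (middle) and of the 4 IgG genes in TMD8 (right). IGHM and IGKC fill at least 99.0% of their bars in U2932, and in TMD8 the IGHG1 segment is 16.0 and 16.2% under isotype against 27.4 to 30.5% under R or OF.

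Variable genes were examined because the mRNA of a complete chain joins a constant region to 1 rearranged variable segment. In U2932, IGHV4-39 held on average 91.3% of the 7442 to 9125 counts on IGHV genes and IGHV1-69D 6.69%, and IGKV3-20 held 97.5% of the 24539 to 29284 counts on IGKV genes. IGLV6-57 led the lambda variable genes with 72.8%, but of only 345 to 457 counts. In TMD8, IGKV2-30 held 83.8% of 946 to 1382 IGKV counts and its near copy IGKV2D-30 7.24%, while all IGHV genes together had 31 to 76 counts, of which IGHV3-48 held 84.9%, beside 15732 to 30905 counts of IGHM. The lambda variable genes of TMD8 had 11 to 36 counts per library, led by IGLV1-47 and IGLV1-44, beside 849 to 2046 counts of IGLC2. Whether the IgG and lambda constant counts of TMD8 came from transcripts with a variable segment was not tested. In both lines most variable counts of a locus fell on 1 gene, except at the lambda locus of TMD8, where 30.5% and 27.8% fell on the first and the second.

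The lines were compared under isotype in a fit of all 12 libraries, with edgeR's quasi-likelihood test and Benjamini-Hochberg adjustment over all genes, and a gene was called at an adjusted p under 0.10. Of the 9 members that passed the low-count filter (IGLC1 did not), 9 were called, where 66.8% of all 16187 genes tested were. The J chain differed most among those higher in U2932, with a log2 difference of 6.52 (SE 0.18, 91.5-fold, adjusted p = 7.11e-10), followed by IGHM at 1.56 (SE 0.16, 2.95-fold) and IGKC at 1.37 (SE 0.24, 2.58-fold). IGHD was 1.84-fold higher in U2932 (log2 0.88, adjusted p = 0.0490), a call that did not hold without replicate 1 of either isotype group (adjusted p = 0.307 and 0.186). Lower in U2932 were IGHG1 at -7.16 (SE 0.30), IGLC3 at -3.56 (SE 0.48), IGLC2 at -2.65 (SE 0.34), IGHG3 at -2.38 (SE 0.17) and IGHA1 at -1.36 (SE 0.24). In RNA from whole cultures, fewer cells that express a gene and less RNA per cell cannot be told apart. Of the 7 plasma cell markers, 5 were called higher in U2932 and 2 lower, where 33.2% and 33.7% of all genes were. XBP1 was at 380 to 497 CPM in U2932 and 17.8 to 55.8 in TMD8, CD38 at 104 to 124 and 0.993 to 1.94, and MZB1 at 123 to 145 and 29.8 to 37.3. The 2 lower ones were IRF4 and PRDM1, at 361 to 389 CPM against 747 to 1210 and at 25.9 to 33.6 against 69.5 to 231.

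In U2932, the genes of the main heavy and light chain and the J chain were higher, and IGLC2 lower, with both anti-CD20 antibodies than with isotype. Against isotype, 4 of the 7 members tested were called with R, 3 higher and 1 lower, where 34.2% of all 14635 genes tested were called, and likewise 4 of 7 with OF, where 36.4% were. IGHG1, IGLC1 and IGLC3 had too few counts to be tested. IGHM rose 1.42-fold with R (95% interval 1.26 to 1.59, log2 0.50, SE 0.08, edgeR adjusted p = 4.59e-05) and 1.59-fold with OF (1.42 to 1.79, log2 0.67, SE 0.08, adjusted p = 9.85e-07). IGKC rose 1.37-fold with R (1.23 to 1.52, adjusted p = 4.1e-05) and 1.25-fold with OF (1.12 to 1.38, adjusted p = 0.0016). JCHAIN rose 1.21-fold with R (1.08 to 1.36, adjusted p = 0.0134) and 1.19-fold with OF (1.05 to 1.33, adjusted p = 0.0264). The isotype libraries were shared by both comparisons.

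IGLC2 fell 1.28-fold with R (1.05 to 1.55, log2 -0.35, SE 0.14, adjusted p = 0.0581) and 1.52-fold with OF (1.24 to 1.86, log2 -0.60, SE 0.14, adjusted p = 0.00199). The 3 members that were tested and not called were IGHG3, at log2 0.15 (95% interval -0.11 to 0.41) with R and 0.18 (-0.08 to 0.44) with OF, IGHA1, at -0.22 (-0.63 to 0.19) and 0.07 (-0.33 to 0.47), and IGHD, at -0.47 (-1.19 to 0.25) and 0.07 (-0.61 to 0.75). The median log2 fold change of the 7 members was 0.15 with R and 0.18 with OF, against -0.02 and 0.01 over all genes tested. The weakest calls turned on single libraries. Without R replicate 2, JCHAIN under R was at 0.16 (adjusted p = 0.231) and IGLC2 at -0.28 (0.287), without isotype replicate 1 IGLC2 under R was at -0.30 (0.141), and without OF replicate 1 or 2 JCHAIN under OF was at 0.26 and 0.22 (0.156 and 0.235).

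The changes of the main chains were accompanied by those of their variable genes. IGHV4-39 was at 438 and 448 CPM under R, 454 and 440 CPM under OF and 343 and 281 CPM under isotype, and rose by 0.50 on the log2 scale with R (SE 0.09, edgeR adjusted p = 0.000133) and by 0.52 with OF (SE 0.09, adjusted p = 8.99e-05). IGKV3-20 rose by 0.43 (SE 0.07) and 0.35 (SE 0.07). IGHV1-69D went the other way, with 22.8 and 25.4 CPM under R, 22.1 and 24.3 CPM under OF and 34.8 and 36.9 CPM under isotype, and it fell by 0.57 (SE 0.11) and 0.62 (SE 0.11) on the log2 scale (edgeR adjusted p = 0.000255 and 0.000114). Its share of the IGHV counts ranged from 4.55 to 11.3% over the libraries. IGLV6-57 rose with both antibodies, by 0.50 (SE 0.13, adjusted p = 0.0055) and 0.35 (SE 0.13, adjusted p = 0.0466), although IGLC2 fell. IGLL5, whose constant exon is that of IGLC1, rose by 0.40 (SE 0.11) and 0.31 (SE 0.11). VPREB3, a relative of the surrogate light chain held at 43 to 114 counts, rose by 1.68 (SE 0.21) and 1.63 (SE 0.21).

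**Figure D3:**
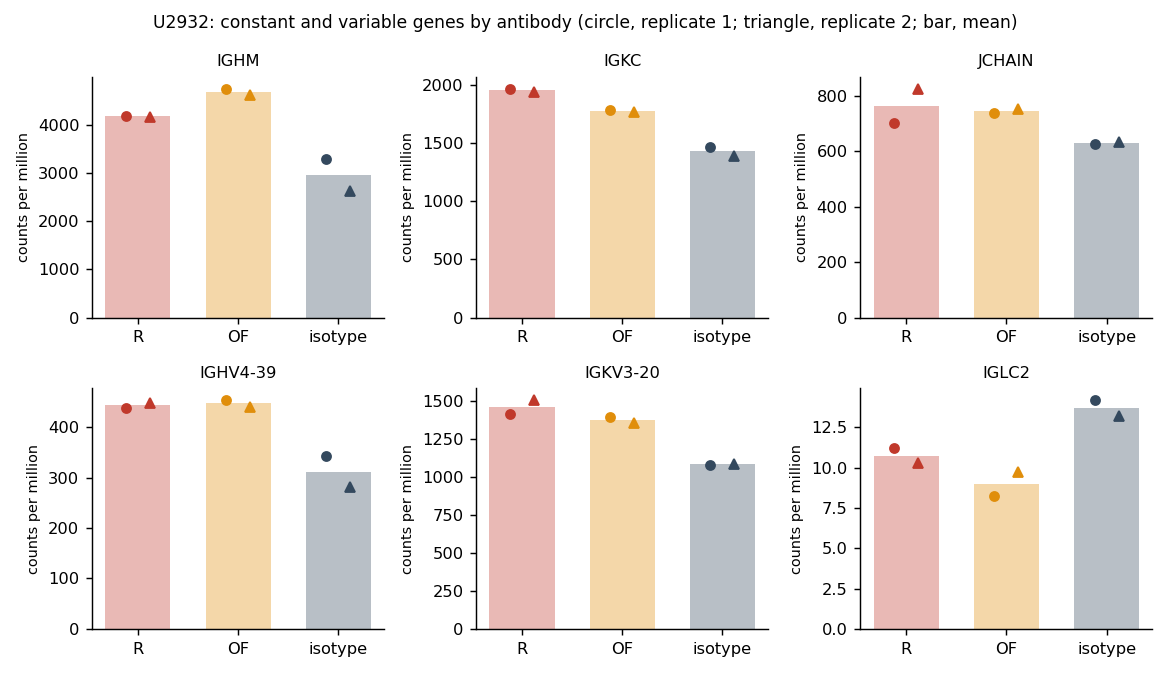
CPM of the main chain genes of U2932 and of IGLC2 in each library, with bars at the mean of the 2 replicates and a separate axis, starting at 0, for each gene. IGHM, IGHV4-39, IGKC, IGKV3-20 and JCHAIN are lower in both isotype libraries than in all libraries with R or OF, and IGLC2 is higher in both.

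R and OF did not differ detectably from each other on these genes in U2932. None of the 7 members tested was called between R and OF by edgeR, where 0.00683% of all genes were (1 gene). DESeq2 called 0 members, and 0 were at an unadjusted p under 0.05 by edgeR. The smallest p of a member was that of IGHM, at 0.0506 before adjustment and 0.910 after, for a log2 difference of -0.17 between R and OF (95% interval -0.34 to 0.00). The intervals for IGKC ran from -0.02 to 0.28, for JCHAIN from -0.14 to 0.20 and for IGLC2 from -0.05 to 0.56. Differences within these limits remained compatible with the data. In TMD8, 0 of the 9 members and 0.0% of all genes were called between R and OF by edgeR (582 genes were at an unadjusted p under 0.05) and 0 genes by DESeq2, with intervals of -0.72 to 0.23 for IGHM and -0.61 to 0.48 for IGHG1.

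In TMD8, no member was called against isotype by edgeR in the filtered fit of its 6 libraries, with no replicate block or GC content correction. With R, 0 of the 9 members tested were called, where 0.647% of all 14227 genes were, and with OF 0 of 9, where 0.815% were. At an unadjusted p under 0.05 by edgeR there were 2 members with R and 1 with OF, beside 2265 and 2009 of all 14227 genes. DESeq2 called 0 members with R and 1 with OF, IGHG1 (adjusted p = 0.0892), beside 721 and 594 of all genes. IGHG1 was also called with R and with OF by edgeR with no filter, with a GC content correction and in a fit of all 12 libraries, at adjusted p of 0.0301 to 0.091. With no filter, 1093 (R) and 908 (OF) of all 26975 genes were called. With the correction these were 488 and 430 of 14227, and with all 12 libraries 1999 and 1607 of 16187. IGHG1 was measured at 105 and 115 CPM under R, 100 and 130 CPM under OF and 53.8 and 80.9 CPM under isotype. All 4 antibody libraries were above both isotype libraries, a separation that was not counted over all genes. The log2 fold change of IGHG1 was 0.72 with R (SE 0.23, 95% interval 0.17 to 1.26, edgeR adjusted p = 0.218) and 0.78 with OF (SE 0.23, 0.23 to 1.33, adjusted p = 0.208). IGHA1, the IgA1 heavy chain, was at 12.7 and 13.7 CPM under R, 15.0 and 17.2 CPM under OF and 18.2 and 23.0 CPM under isotype, which was above all 4. Its log2 fold change was -0.64 with R (-1.08 to -0.19, adjusted p = 0.187) and -0.35 with OF (-0.79 to 0.09, adjusted p = 0.448). IGHD, with 11 to 27 counts in a library, was at 0.33 (-0.64 to 1.3) and 0.82 (-0.12 to 1.76). IGHM was at 0.17 (-0.31 to 0.64) and 0.41 (-0.06 to 0.89), and IGKC at 0.07 (-0.69 to 0.82) and -0.10 (-0.86 to 0.66).

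The intervals were wide in TMD8, and the calls also depended on how the replicates were handled. The replicate number was also used as a block. It pairs the cultures of a line only if it marks the same culture under each antibody, which the labels do not state. In that fit IGHG1 was called with R (log2 0.74, edgeR adjusted p = 0.0181) and with OF (0.79, adjusted p = 0.0172), and IGHA1 with R (-0.63, adjusted p = 0.0341). Of all genes, 17.7% were called with R and 14.3% with OF (2521 and 2037 genes, against 92 and 116 without the block). Without both libraries that stood apart, an alternative added after the data were seen, 5 members were called with R and 2 with OF, where 30.3% and 23.4% of all 14391 genes tested were. IGHG1 was then at 1.02 with R and 0.89 with OF, IGHM at 0.30 (adjusted p = 0.0346) and 0.52 (adjusted p = 0.000842), IGHA1 at -0.47 with R (adjusted p = 0.0273), and IGKC and IGLC2 at -0.27 and -0.42 with R (adjusted p = 0.0665 and 0.00426), the reverse of their signs with all libraries. In that fit OF and isotype had 1 library each, taken to vary like the R pair.

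The IgG genes outside the 10 also differed in direction in TMD8. IGHG2 was at 118 and 134 CPM under R, 134 and 171 CPM under OF and 175 and 279 CPM under isotype, and neither its log2 difference of -0.84 (SE 0.25) under R nor that of -0.57 (SE 0.25) under OF was called (edgeR adjusted p = 0.188 and 0.37). IGHG4 was at 0.28 and 0.41, with 62.4 to 74.1 CPM under R or OF and 43.3 and 63.4 CPM under isotype. IGLL5 rose by 0.98 with R (SE 0.15, adjusted p = 0.0815) and was at 0.77 with OF without being called (adjusted p = 0.11), from 19.9 and 20.5 CPM under isotype to 37.8 and 41.4 CPM under R and 34.2 and 34.1 CPM under OF. The IGLL5 values included those of both libraries that stood apart, which lay beside their partners.

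**Figure D4:**
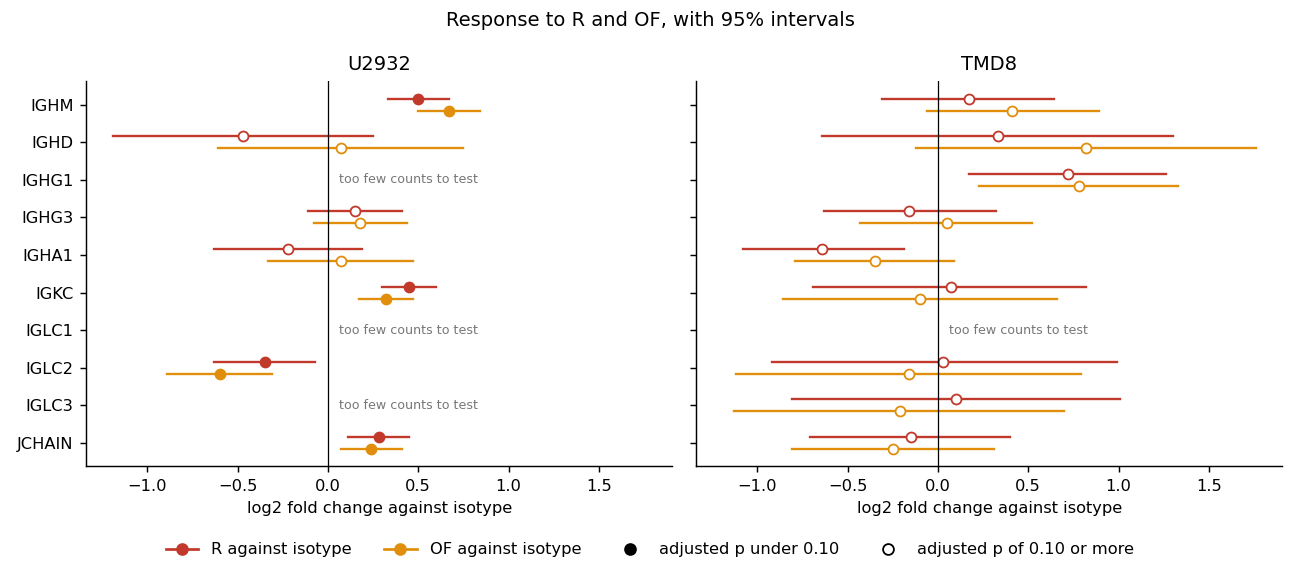
Log2 fold change of each gene against isotype with R and with OF, with 95% intervals, in U2932 (left) and TMD8 (right), where filled symbols mark an adjusted p under 0.10. In U2932, IGHM, IGKC and JCHAIN lie above 0 and IGLC2 below with both antibodies, and in TMD8 all symbols are open, with IGHG1 at 0.72 and 0.78.

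A direct test by edgeR of the difference between lines called 0 of the 9 members for R (0.321% of all 16187 genes called) or for OF (0.105%). The response of IGHM in TMD8 minus that in U2932 was -0.35 with R (95% interval -0.85 to 0.15, adjusted p = 0.577) and -0.26 with OF (-0.76 to 0.24, adjusted p = 0.849). For JCHAIN it was -0.43 (-0.92 to 0.05) and -0.49 (-0.97 to 0.00), with unadjusted p of 0.0758 and 0.0510, and for IGHG1 0.89 (-0.31 to 2.08) and 1.32 (0.06 to 2.58), with unadjusted p of 0.130 and 0.0415. For IGKC it was -0.39 (-1.13 to 0.35) and -0.42 (-1.16 to 0.32), with adjusted p of 0.697 and 0.829. Without both TMD8 libraries that stood apart, 3 members were called for R and 2 for OF, where 16.0% and 5.28% of all 16710 genes tested were. IGKC was then at -0.71 for R (SE 0.12, edgeR adjusted p = 0.000191) and -0.45 for OF (SE 0.13, adjusted p = 0.0577), JCHAIN at -0.63 (adjusted p = 0.0358) and -0.70 (adjusted p = 0.0985), and IGLC3, with few counts in U2932, at 1.58 for R (adjusted p = 0.0955). With all 12 libraries, the calls in U2932 and their absence in TMD8 are not shown to differ between the lines, and for IGKC and JCHAIN this turned on those 2 libraries.

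Genes that control, switch, assemble or bind immunoglobulin were described from 4 lists. Among 22 genes of immunoglobulin transcription and mRNA processing, 2 were called higher and 7 lower in U2932 with R, and 4 and 5 with OF, beside 16.8% higher and 17.4% lower over all genes with R and 18.7% and 17.8% with OF. POU2F2 (OCT2), which binds the octamer of immunoglobulin promoters, rose by 0.38 with R and 0.66 with OF, from a mean of 318 CPM under isotype to 415 and 500 CPM. IRF8, which acts in germinal centre B cells, fell by 0.69 and 0.60, and the E protein gene TCF12 fell by 0.61 and 0.68. None of the 22 was called in TMD8, where 0.647% of all genes were with R and 0.815% with OF. XBP1, a driver of the secretory program, had the smallest edgeR adjusted p there, 0.123 with R and 0.154 with OF. Its means were 51.7 and 47.6 CPM against 22.1 CPM under isotype.

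Of 20 genes of class switching and somatic hypermutation, 2 were called higher and 6 lower in U2932 with R, and 3 and 6 with OF. Over all genes in U2932, 34.2% were called with R and 36.4% with OF in either direction. By direction, 16.8% were higher and 17.4% lower with R, and 18.7% and 17.8% with OF. None of the 20 was called in TMD8, where 0.647% and 0.815% of all genes were. UNG, which removes uracil from DNA, fell by 0.36 with R and 0.34 with OF on the log2 scale, and BATF, a transcription factor needed for switching, rose by 0.84 and 0.72. The median log2 fold change over the list in U2932 was -0.10 with R and -0.14 with OF.

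Of 30 genes of immunoglobulin folding, assembly and secretion, 12 were called higher and 2 lower in U2932 with R, and 9 and 3 with OF, with medians of 0.15 and 0.13. Over all genes in U2932, 16.8% were called higher and 17.4% lower with R, and 18.7% and 17.8% with OF. CD79A, the signalling partner that carries membrane immunoglobulin to the surface, rose from a mean of 451 CPM under isotype to 811 CPM with R (log2 0.85, SE 0.08) and 806 CPM with OF (0.84, SE 0.08). The endoplasmic reticulum proteins SDF2L1 and ERP29 rose by 0.65 and 0.55 with R and by 0.63 and 0.56 with OF, whereas the chaperone DNAJB9 fell by 0.50 and 0.59. In TMD8, 2 of the 29 tested were called with R and 1 with OF, where 0.647% and 0.815% of all genes were. HSPA5 (BiP), which holds unpaired heavy chains in the endoplasmic reticulum, rose from a mean of 283 CPM under isotype to 775 CPM with R (1.46, SE 0.18, adjusted p = 0.0697) and 819 CPM with OF (1.54, SE 0.18, adjusted p = 0.0851), and its co-chaperone DNAJC3 rose by 0.99 with R (adjusted p = 0.0803). Under isotype, 25 of the 30 were called higher in U2932 than in TMD8 and 1 lower, where 33.2% and 33.7% of all genes were.

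Of the receptors that bind immunoglobulin or resemble such receptors, 4 of 12 tested were called higher in U2932 with R and 5 with OF, and none lower. Over all genes, 34.2% were called with R and 36.4% with OF in either direction, and 16.8% and 18.7% of all genes were called higher. FCRL5, which binds IgG, rose from a mean of 68.0 CPM under isotype to 112 CPM with R and 105 CPM with OF, and FCRLA, an intracellular member of the family, from 213 CPM to 297 and 280 CPM. In TMD8, 1 of 13 was called, FCRLB with OF (log2 1.37, SE 0.23, edgeR adjusted p = 0.0966), at 2.52 CPM under isotype and 6.47 CPM under OF. Of all genes in TMD8, 0.815% were called with OF. FCGR2B, the inhibitory IgG receptor of B cells, averaged 57.6 CPM under isotype, 79.8 CPM under R and 63.9 CPM under OF in TMD8 and was not called.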

How the data were processed

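Reads of 12 libraries of U2932 and TMD8 were trimmed by the authors with Trim Galore 0.6.0, aligned with STAR 2.7.0e to an Ensembl human reference (GRCh38) and deposited as raw counts per gene, for 58884 genes. The versions are those of the submitters' processing notes, which also list DESeq2 1.26.0. The annotation release, the strand setting and the treatment of reads that match more than 1 place are not given in the sources used here. Total counts of 15440226 to 27110612 per library set the counting error, and intervals and floors (3 counts) cover no other error in counting.

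Genes were named and placed with GENCODE 29, which held 58611 of the identifiers, and all columns were used. The count table was fitted with edgeR 4.0.16 in R 4.3.3 (TMM, filterByExpr with at least 10 counts, quasi-likelihood test), with the 6 libraries of a line in 1 fit and 1 mean per antibody. P-values were adjusted by Benjamini-Hochberg over all genes tested, and a gene was called at an adjusted p under 0.10 with no limit on the fold change. Differences between lines were tested in a fit of all 12 libraries. CPM were scaled by TMM over the 12 libraries, and shares were taken from raw counts.

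Replicate numbers were taken to mark the cultures that were split from each line before treatment, which the labels do not state. The deviations of same-numbered libraries from their group means correlated at -0.047 to 0.14 between antibodies in U2932 and at 0.28 to 0.77 in TMD8. Replicates of every condition differed by more than counting error. The members and the other gene lists were chosen with earlier results of these data known. Values are given for all 10 members, for other constant genes with at least 1% of their chain's counts in a library, for the 2 leading variable genes per locus and line, and for up to 4 genes of each list with the smallest adjusted p. VPREB3, IGLL5 and the plasma cell markers shown were named after their values were seen. Alternatives were DESeq2 1.42.0, total counts only, other count filters, a replicate block, a GC content correction, all 12 libraries in one fit, a 1.5-fold limit and leaving out each library. Values of 2 genes that these rules select are not reported here. The steps were tested on simulated data.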

Additional observations from a re-analysis of the deposited data

How the results depend on the processing

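In U2932, the 4 members called with R became 0 in a fit of all 12 libraries, where the spread of TMD8 enters, and 0 with a 1.5-fold limit, and ranged from 2 to 6 when 1 library was left out, 2 of them without R replicate 2. The 4 called with OF became 1 and 2 under the same settings and ranged from 3 to 4. Over all genes, the 5005 of 14635 called with R became 1207 of 16187 in the fit of all 12 libraries and 1494 of 14635 with the 1.5-fold limit. Those called with OF went from 5334 to 1407 and 1625. In the fit of all 12 libraries IGHM kept its call with OF (adjusted p = 0.0432), while with R its adjusted p was 0.111. IGLC2 with R was not called by DESeq2 (adjusted p = 0.165), and JCHAIN with OF not with total counts only (0.106). In TMD8, the 0 members called with R became 1 with no filter, 2 with the replicate block, 1 with the GC content correction, 2 with that correction and the block, 1 with all 12 libraries in one fit and 5 without both libraries that stood apart, and leaving out 1 library gave 0 to 0. The 0 called with OF became 1 with DESeq2, 1 with no filter, 1 with the replicate block, 1 with the GC content correction, 2 with correction and block, 1 with all 12 libraries and 2 without both libraries, and leaving out 1 library gave 0 to 1, the 1 being IGHG1 without isotype replicate 2 (1.09, adjusted p = 0.0813). Without both libraries, IGKC and IGLC2 with R in TMD8 reversed, to -0.27 and -0.42, and the 0 members called in the test of the difference between lines became 3 for R and 2 for OF. Over all genes in TMD8, the 92 called with R became 721 with DESeq2, 1093 with no filter and 2521 with the replicate block. They became 488 with the GC content correction, 2218 with correction and block, and 1999 with all 12 libraries. The 116 called with OF became 594, 908, 2037, 430, 2169 and 1607 in the same order. These fits tested 14227 genes, except 26975 with no filter and 16187 with all 12 libraries. IGHG1 in TMD8 kept its direction under all 15 alternatives, from 0.47 to 1.03 with R and 0.54 to 1.09 with OF. The blocked fit changed no call of a member in U2932 and, in TMD8, only those of IGHG1 and IGHA1 given above. With member genes alone as the denominator, the IGHM share was 99.5% in U2932 with OF, 99.2% with isotype, and 85.6%, 86.7% and 86.4% in TMD8 with R, OF and isotype, so the lower IGHM share of TMD8 under isotype was not seen once IGHG2 and IGHG4 were left out. The IGKC share in TMD8 with R was 85.7%. Leaving out 1 library, the IGHM share ranged from 67.5 to 71.9% in TMD8 with isotype and from 74.1 to 77.2% with OF. Of the values of single members under all alternatives, 1189 kept their side of the threshold, 26 gained a call, 16 lost one and 2 reversed. A reversal was counted only where the value was called in either fit. The sign changed in 71 values, those 2 included. Calls over all genes, and the values of the other named genes, are given for the settings named only. Depth limits IGHD, and IGHG1 and IGLC3 in U2932, which had 1 to 41 counts per library.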

Other observations

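Over the 12 libraries, with log2 CPM (pseudocount 0.5) centred within each line, the genes most like IGHM among 7871 compared were AHCY (Pearson r = 0.982), CNPPD1 (0.982) and CSK (0.976). Those most like IGKC were POLR2F (0.993), FAU (0.992) and the ribosomal protein gene RPL36 (0.987), and those most like JCHAIN, among 7872, included CBR1 (0.887) and NAPSB (0.872). These are descriptions over libraries that share depth, cultures and the 2 libraries that stood apart, and they carry no test. IGKC and the ribosomal genes shared their low values in OF replicate 2 and isotype replicate 2 of TMD8 and their lower level under isotype in U2932, where FAU changed by 0.76 with R and 0.49 with OF on the log2 scale and IGKC by 0.45 and 0.32. IGHM did not share the low values in TMD8, with 1350 and 1100 CPM in those libraries against 1290 and 898 CPM in their partners.

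Within the same libraries of TMD8, the shares of IGHG1 and IGHG2 moved in opposite directions, IGHG1 from 16.1% of IgG counts under isotype to 30.3% under R and 28.0% under OF, and IGHG2 from 54.1% to 34.7% and 37.1%. IGHG3 stayed between 16.1 and 17.7% in all 6 libraries, the 2 that stood apart among them. Reads across the hinge exons printed above, which differ between the genes, were not analysed here.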
